A study of Mus musculus with 9 samples.

Results

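Livers labelled as lacking the glucagon receptor were compared with wild-type livers, gene by gene, in mice that had received PBS. The samples were chosen by their titles: 3 libraries labelled Gcgr-/- (knockout-labelled) against 3 labelled Gcgr+/+ (wild type), which is 6 of the 9 libraries of the series. The other 3 libraries were labelled as from Gcgr+/+ mice that received a humanized monoclonal antibody to the receptor at 10 mg/kg (antibody-labelled), and they entered the filter on low values and the estimate of the spread. All mice were C57Bl6 males of 16 to 20 weeks that had fasted for 6 h, with injections of PBS or antibody into the peritoneum once a week over 10 days. Each mouse gave a liver punch of about 100 mg, from which poly(A) RNA was sequenced as 50 M paired reads of 50 bp on a HiSeq2500. The labels do not say how the Gcgr-/- allele was made, which exons it removes, or whether the control mice were littermates. The series set both ways of interrupting glucagon signalling side by side to look for liver genes with a possible part in the proliferation of pancreatic alpha cells. Of 37583 genes in the deposited table, 20029 lay above the table's lowest value of 1 in at least 3 of the 9 libraries and were tested.

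Glucagon is the fasting hormone of the pancreatic alpha cell, and its receptor on hepatocytes couples through a stimulatory G protein to adenylate cyclase. The cyclic AMP formed activates protein kinase A, which acts on enzymes at once and on transcription through the factor CREB. In liver the pathway is known for raising glucose output, glycogen breakdown, amino acid uptake and breakdown, and urea formation.

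Gcgr itself was not low in the knockout-labelled livers. Gcgr (ENSMUSG00000025127, mm9 chromosome 11) had normalized values of 19547, 17565 and 18450.5 in wild-type libraries 1 to 3. It had 27365, 19656 and 21128 in the knockout-labelled libraries. The knockout-labelled values all lay above the wild-type ones, at 123% of the wild-type mean, and the difference did not pass the test (log2 fold change 0.28, SE 0.15, limma, Benjamini-Hochberg adjusted p = 0.434). The antibody-labelled libraries held 2271, 2496 and 1808, under all 6 others (log2 fold change against wild type -3.09, adjusted p = 2.29e-06). The libraries low in Gcgr were thus those labelled as antibody-treated and not those labelled as lacking the gene. Whether the labels or column headers of these groups were exchanged cannot be told from the table and was not tested, and every value of the knockout-labelled and antibody-labelled groups below carries that doubt. A value per gene does not show which exons the reads came from, so the genotype could not be checked further, and the groups are called by their labels throughout. Every direction given below is that of the libraries labelled Gcgr-/- relative to those labelled Gcgr+/+.

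The libraries differed in depth and in a trend with transcript length. The estimated reads assigned to genes were 10.99 M in knockout-labelled library 1 and between 21.6 and 30.1 M in the other 8. That library stood at 84.3 on the first principal component (22.9% of the variance), with the others between -19.2 and 1.71. On the second component (16.3%) the wild-type libraries lay between 28.9 and 34.8 and the knockout-labelled between -2.39 and 2.62. No pair among the 36 pairs of libraries held identical values. All 20 hepatocyte markers were tested in these livers and 10 of 14 pancreatic acinar markers were at the lowest value in all 9 libraries. In bulk tissue, fewer cells of a type and less RNA per cell cannot be told apart. The titles number the mice but do not describe cages, litters or days, so p-values measure the spread between these samples.

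Most genes did not pass the test between knockout-labelled and wild-type livers, and those that did were spread over metabolism, transport, signalling and the cytoskeleton. The aminotransferase gene Got1 and the cationic amino acid transporter gene Slc7a2 fell, and the water channel gene Aqp8, the glucose-uptake inhibitor gene Txnip and the phosphate transporter family gene Slc17a4 rose. Of the 20029 genes tested, 31 passed an adjusted p of 0.05, or 0.155%, with 12 higher (0.0599%) and 19 lower (0.0949%). Before adjustment, 2758 genes (13.8%) had a p under 0.05, of which 1123 were higher (5.61%) and 1635 lower (8.16%). The 3 knockout-labelled values lay wholly outside the 3 wild-type values in all 31 genes that passed, as in 16.4% of the genes tested (7.09% higher and 9.35% lower). The median log2 fold change of all tested genes was -0.01, with 48.6% of genes above 0. With 3 libraries against 3, the smallest p that a permutation test could give was 0.1, so none was run for single genes.

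The number of genes passing depended on single libraries. Without wild-type library 1 it was 4, without wild-type library 2 it was 16, and without wild-type library 3 it was 80. Without knockout-labelled library 1 it was 8, without library 2 of that group 145, and without library 3 it was 13. Without antibody-labelled library 2 it was 6 and without antibody-labelled library 3 it was 16. The sign of the fold change held for each of the 31 genes in every alternative that tested it (other settings, or 1 library left out). Knockout-labelled and wild-type values did not overlap in any of the 31, so leaving out 1 library or changing the pseudocount could not turn the sign. The alternatives numbered 19 for each gene but 4933437F05Rik, tested in 18. Aqp8 and F830016B08Rik passed in 18 of these, Csrp3 in 17, Rogdi in 16 and Txnip in 15, and 18 of the 31 genes passed in at least 10 of the 19. At the other end, 4933437F05Rik passed in 0 of the 18 alternatives that tested it.

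**Figure D1:**
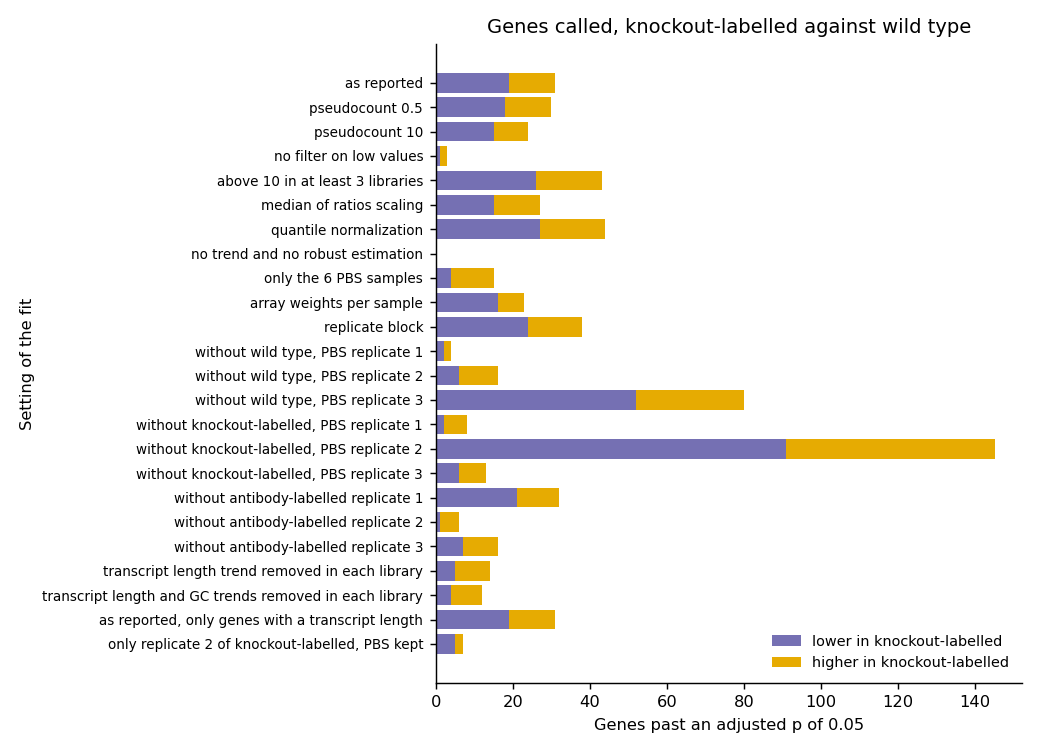
Number of genes past an adjusted p of 0.05 in knockout-labelled against wild-type livers (horizontal axis) under each setting, split into lower and higher. The reported fit gives 31; leaving out knockout-labelled library 2 gives 145, leaving out wild-type library 1 gives 4, and a fit with no trend and no robust estimation gives 0.

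**Figure D2:**
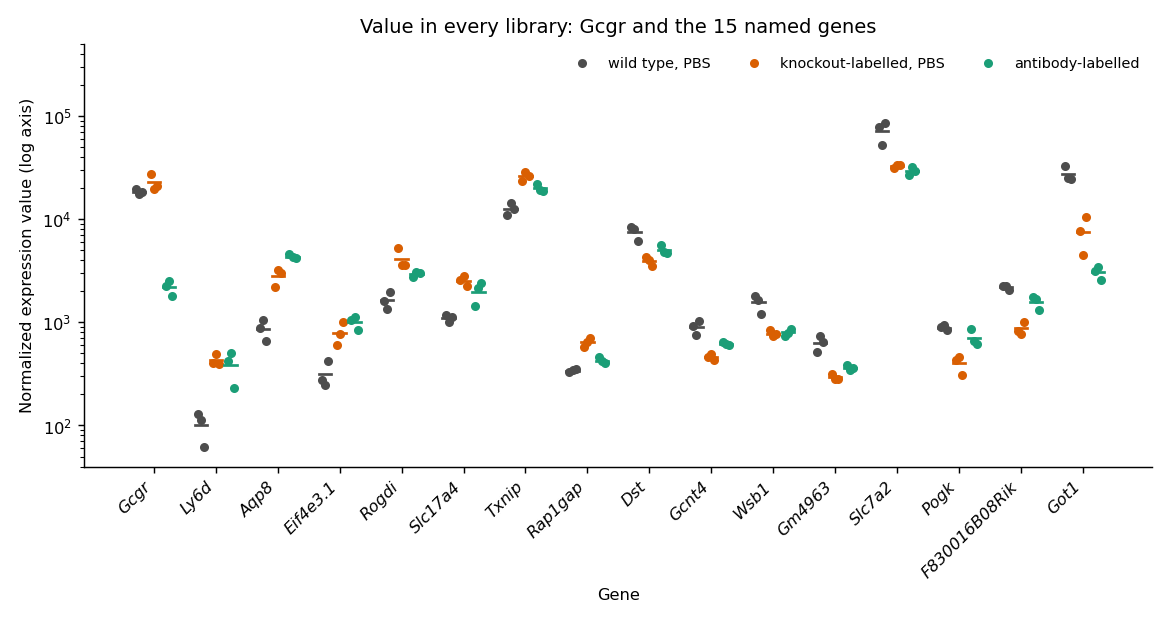
Normalized values (vertical log axis) of Gcgr and of the 15 genes with the largest changes among well-expressed genes that passed the test, one point per library and a bar at each group mean (n = 3). In Gcgr the antibody-labelled points lie between 1808 and 2496 and the knockout-labelled points between 19656 and 27365; in each of the other 15 genes the knockout-labelled points lie wholly above or wholly below the wild-type points.

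Among enzymes of intermediary metabolism, Got1 had the largest fall. Got1, the cytosolic aspartate aminotransferase (ENSMUSG00000025190, mm9 chromosome 19, 43574242 to 43599095, minus strand), had 32435, 25190.4 and 24708 in wild type and 7698, 4513 and 10407 in knockout-labelled livers. The lowest wild-type library thus stood above every knockout-labelled one, and the group mean fell 3.64-fold (log2 fold change -1.93, SE 0.26, adjusted p = 0.0284). Txnip, which binds thioredoxin and restrains glucose uptake (ENSMUSG00000038393, mm9 chromosome 3, 96361880 to 96365806, plus strand), had 11014, 14357 and 12695 in wild type and 23270.5, 28709 and 26370.3 in knockout-labelled livers. The groups were apart and the mean rose 2.06-fold (log2 fold change 1.04, SE 0.13, adjusted p = 0.0181). Aldoc, aldolase C, the form of this glycolytic enzyme best known from brain, rose from 585 ± 38.1 to 1058 ± 168 (SD, n = 3 in both groups; log2 fold change 0.84, adjusted p = 0.0433). Pfkfb2, an isoform of the enzyme that makes and removes the activator of phosphofructokinase, fell from 3417 ± 565 to 1896 ± 204 (SD, n = 3 in both groups; log2 fold change -0.84, adjusted p = 0.0489). Pdpr, the regulatory subunit of the phosphatase that switches pyruvate dehydrogenase on, fell from 2282 ± 77.9 to 1297 ± 196 (SD, n = 3 in both groups; log2 fold change -0.82, adjusted p = 0.0489). Acsl4, an acyl-CoA synthetase that prefers arachidonic acid, fell by 0.73 on the log2 scale (adjusted p = 0.0418). Gcnt4, a glycosyltransferase that branches O-linked glycans (mm9 chromosome 13, 97694644 to 97720867, plus strand), had 931, 746 and 1021 in wild type and 459.8, 493 and 429 in knockout-labelled livers. Its groups did not overlap (log2 fold change -0.95, SE 0.14, adjusted p = 0.0284).

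Channels and transporters moved in both directions. Slc7a2, a carrier of arginine, lysine and ornithine (ENSMUSG00000031596, mm9 chromosome 8, 41947750 to 42007662, plus strand), had 78666, 52505 and 85537 in wild type and 31208, 33497 and 33250.0 in knockout-labelled livers. The 3 knockout-labelled livers were close together and all under the lowest wild-type value (log2 fold change -1.12, SE 0.17, adjusted p = 0.0284). Aqp8, a water channel of hepatocyte membranes (ENSMUSG00000030762, mm9 chromosome 7, 130605808 to 130611517, plus strand), had 888, 1060.3 and 663 in wild type and 2189.8, 3251 and 3035 in knockout-labelled livers. The lowest knockout-labelled value was above the highest wild-type one, and the mean rose 3.25-fold (log2 fold change 1.70, SE 0.18, adjusted p = 0.00664). Slc17a4, of the family of sodium-phosphate and organic anion transporters (mm9 chromosome 13, 23989607 to 24006876, minus strand), had 1183, 1018 and 1129 in wild type and 2574, 2799 and 2228 in knockout-labelled livers. The groups were apart and the mean rose 2.28-fold (log2 fold change 1.19, SE 0.17, adjusted p = 0.0284). Slc27a1, a fatty acid transport protein with acyl-CoA synthetase activity, rose from 3023 ± 445 to 5524 ± 712 (SD, n = 3 in both groups; log2 fold change 0.87, adjusted p = 0.0492).

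Signalling genes that passed included regulators of cyclic AMP and of small G proteins. Pde3b, a phosphodiesterase that breaks down cyclic AMP, fell from 7213 ± 299 to 4770.2 ± 354 (SD, n = 3 in both groups; log2 fold change -0.60, SE 0.10, adjusted p = 0.0489). Rap1gap, which switches off the small G protein Rap1 (mm9 chromosome 4, 137220641 to 137285782, plus strand), had 328, 342 and 349 in wild type and 573, 649 and 702 in knockout-labelled livers. The wild-type libraries spanned a narrow range and all lay below the knockout-labelled ones (log2 fold change 0.91, SE 0.13, adjusted p = 0.0284). Grk4, a kinase of G protein-coupled receptors, was low in both groups, at 57.0, 53.4 and 47.9 in wild type and 11.9, 17.2 and 13.7 in knockout-labelled livers (log2 fold change -1.83, SE 0.29, adjusted p = 0.0433). Ppm1l, a protein phosphatase, fell by 0.79 on the log2 scale, from 1356 ± 71.3 to 785 ± 84.0 (SD, n = 3 in both groups; adjusted p = 0.0284). Wsb1, a subunit of a ubiquitin ligase (mm9 chromosome 11, 79052874 to 79068173, minus strand), had 1818, 1657 and 1215 in wild type and 838, 733 and 766 in knockout-labelled livers. Every knockout-labelled value was under the lowest wild-type one (log2 fold change -0.99, SE 0.15, adjusted p = 0.0284).

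Among regulators of transcription, Fosb, a subunit of the transcription factor AP-1 and an immediate-early gene, had the largest rise on the log2 scale, from values near the lower limit. It had 4.36, 9.03 and 8.43 in wild type and 111, 95.6 and 57.8 in knockout-labelled livers (log2 fold change 3.43, SE 0.47, adjusted p = 0.0284). A single read was estimated, from the commonest value above 1, to be worth between 1.504 and 4.74 in these libraries. On that estimate the wild-type values rested on a handful of reads. Pogk, a zinc finger protein with a domain from a transposase (mm9 chromosome 1, 168314753 to 168339994, minus strand), had 893, 940.2 and 838 in wild type and 434, 462 and 310.3 in knockout-labelled livers. Its groups did not overlap (log2 fold change -1.17, SE 0.17, adjusted p = 0.0284). Csrp3, a LIM-domain protein best known from heart and skeletal muscle, rose from 1755 ± 145 to 3149 ± 171 (SD, n = 3 in both groups; log2 fold change 0.85, SE 0.10, adjusted p = 0.0181). Of 12 listed muscle markers 7, among them Acta1 and Ckm, were at the lowest value in all 9 libraries. The list's summed value was 302 to 323 in wild type and 329 to 405 in knockout-labelled livers, so all 3 knockout-labelled livers lay above all wild-type ones, with a median log2 fold change of 0.18 over the 4 markers tested. The part of muscle RNA in the rise of Csrp3 was not tested.

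Genes of cytoskeletal, membrane and secreted proteins passed as well. Dst, dystonin, a large linker of cytoskeletal filaments (mm9 chromosome 1, 33965125 to 34365495, plus strand), had 8467, 8068 and 6108 in wild type and 4348, 4002 and 3548 in knockout-labelled livers. The groups were apart (log2 fold change -0.92, SE 0.14, adjusted p = 0.0284). Epb4.1, a protein of the membrane skeleton best known from red cells, fell by 0.60 on the log2 scale (adjusted p = 0.0386), and Phldb3, with a pleckstrin homology domain, rose by 0.69 (adjusted p = 0.0474). Vps13c, a lipid transfer protein of organelle contacts, fell by 0.71 on the log2 scale, from 2959.6 ± 141 to 1811 ± 204 (SD, n = 3 in both groups; adjusted p = 0.0284). F5, coagulation factor V, a product of hepatocytes, fell from 38357 ± 1160.4 to 24181 ± 679.7 (SD, n = 3 in both groups; log2 fold change -0.67, SE 0.10, adjusted p = 0.0287). Enpep, a membrane aminopeptidase of the angiotensin pathway, fell by 0.85 on the log2 scale (adjusted p = 0.0474). Ly6d, a lipid-anchored surface protein (mm9 chromosome 15, 74592486 to 74593997, minus strand), had 129.9, 113 and 61.6 in wild type and 404, 496 and 398 in knockout-labelled livers. The mean rose 4.27-fold with no overlap (log2 fold change 2.14, SE 0.31, adjusted p = 0.0284).

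The other genes that passed have roles that are less known in liver. F830016B08Rik (ENSMUSG00000090942, mm9 chromosome 18, 60453034 to 60462670, plus strand) had 2267, 2249 and 2073 in wild type and 831, 776 and 1013 in knockout-labelled livers. The fall was 2.51-fold with no overlap (log2 fold change -1.34, SE 0.14, adjusted p = 0.00664), and the table lists 15 paralogs of this gene. Rogdi, whose human counterpart is mutated in Kohlschütter-Tönz syndrome (mm9 chromosome 16, 5008823 to 5013620, minus strand), had 1607, 1357 and 1954 in wild type and 5222, 3560.3 and 3592 in knockout-labelled livers. The mean rose 2.52-fold with no overlap (log2 fold change 1.32, SE 0.17, adjusted p = 0.0181). Gm4963 (mm9 chromosome 5, 138434275 to 138434652, minus strand) had 511, 734 and 644 in wild type and 316, 283 and 281 in knockout-labelled livers, again with no overlap (log2 fold change -1.09, SE 0.15, adjusted p = 0.0284). Eif4e3.1 is the name given here to a second Ensembl entry under the symbol Eif4e3 (ENSMUSG00000093661, mm9 chromosome 6, 99575129 to 99616765, minus strand). This entry had 276, 247 and 422 in wild type and 606, 770.3 and 1002 in knockout-labelled livers. It rose by 1.34 on the log2 scale (SE 0.22, adjusted p = 0.0489), but it overlaps the other entry, Eif4e3 (ENSMUSG00000030068), on the same strand. The other entry stood at -0.89 (adjusted p = 0.471), so how reads were divided between the entries is uncertain. Last, 4933437F05Rik had 10.99, 5.99 and 7.99 in wild type and 1.00, 1.00 and 1.06, at or next to the lowest value, in knockout-labelled livers (log2 fold change -2.17, adjusted p = 0.0489). Whether reads were assigned by strand is not given in the sources used here, and 8 of the 31 genes overlap a tested gene on the opposite strand: Dst, Pfkfb2, F5, Pogk, Txnip, Epb4.1, Slc7a2 and Pdpr.

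Both labelled groups were set beside wild type for these 31 genes. The comparisons share the 3 wild-type libraries, so agreement between them is not independent. In antibody-labelled against wild type, 268 of 20029 genes passed (1.34%), and 17 of the 31 were among them, 8 higher and 9 lower, all with the sign seen in knockout-labelled livers. Got1 stood at -1.93 in knockout-labelled and at -3.16 in antibody-labelled livers on the log2 scale, and Aqp8 at 1.70 and 2.34. Slc7a2 stood at -1.12 and -1.27, Wsb1 at -0.99 and -0.95, Acsl4 at -0.73 and -0.78, and Epb4.1 at -0.60 and -0.63. Over the 12 genes that rose the median was 1.12 in knockout-labelled and 0.84 in antibody-labelled livers. Over the 19 that fell it was -0.92 and -0.57. The 31 genes were chosen for passing in knockout-labelled livers, which favours larger changes there. These medians therefore do not show in which labelled group the changes were larger.

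**Figure D3:**
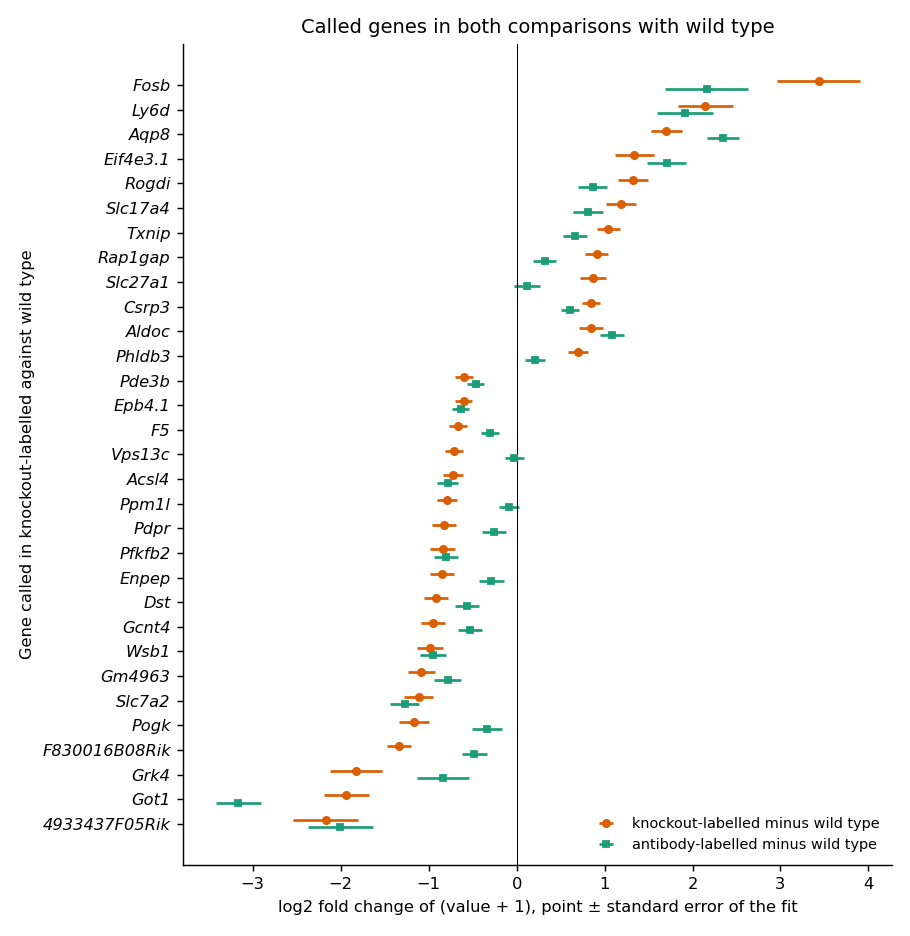
Log2 fold change against wild type (horizontal axis, value + 1) of the 31 genes that passed in knockout-labelled livers, in the knockout-labelled (circles) and antibody-labelled (squares) libraries, with bars of 1 standard error of the fit. Circles and squares share the 3 wild-type libraries; Vps13c and Ppm1l have squares at -0.03 and -0.09 beside circles at -0.71 and -0.79.

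The direct contrast of antibody-labelled with knockout-labelled libraries tests the difference without the shared wild type. It was passed by 56 of 20029 genes (0.280%) and by 3 of the 31: F830016B08Rik, Vps13c and Ppm1l. F830016B08Rik had 1773, 1669 and 1318 in the antibody-labelled libraries, above the knockout-labelled ones (log2 difference 0.86, SE 0.14, adjusted p = 0.0417). Vps13c had 3002, 2933 and 2778 there, inside or next to the wild-type range (log2 difference 0.69, SE 0.11, adjusted p = 0.0356). Ppm1l had 1297, 1204 and 1322 (log2 difference 0.70, SE 0.11, adjusted p = 0.0417). All 3 were therefore lower in the knockout-labelled livers than in either other group. The 31 genes were chosen for passing against wild type, and the direct contrast uses the same knockout-labelled libraries. That choice favours a difference here, so 3 of the 31 cannot be weighed against 0.280% of all genes. With the trend with transcript length described below removed, none of the 3 passed this contrast: F830016B08Rik stood at 0.84 (adjusted p = 0.0634), Vps13c, with a longest transcript of 11527 bases, at 0.43 (adjusted p = 0.105) and Ppm1l, with 9417 bases, at 0.47 (adjusted p = 0.136), and 9 genes passed in all. Among the other 28 genes the lowest adjusted p of the direct contrast was 0.0668, for Slc27a1. A p above the threshold does not show that the 2 labelled groups had equal values.

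**Figure D4:**
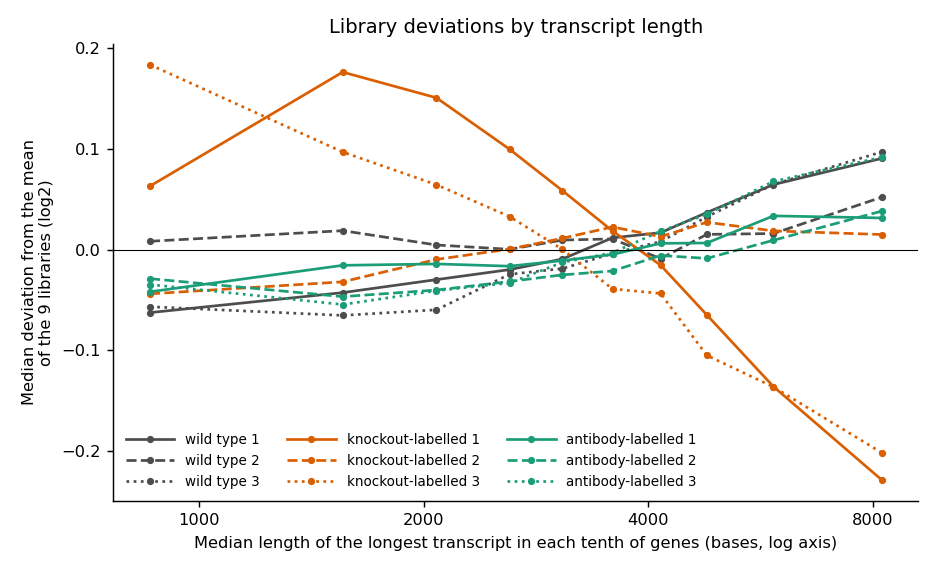
Median deviation from the mean of the 9 libraries (vertical axis, log2) in 10 equal bins of genes ordered by the length of their longest transcript (horizontal log axis, bases), one line per library, for 9858 genes at or above the median level. Knockout-labelled libraries 1 and 3 fall to -0.23 and -0.20 in the bin of longest transcripts, while knockout-labelled library 2 ends at 0.01 and the wild-type libraries at 0.05 to 0.10.

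A trend with transcript length ran through the comparison. Across the 9858 genes at or above the median level with a transcript length, Spearman's rho between the log2 fold change and the log2 length was -0.39 in knockout-labelled against wild type and -0.02 in antibody-labelled against wild type, as a description across genes, which are not replicates. In 10 bins of length, the median log2 fold change ran from 0.12 for the shortest transcripts to -0.21 for the longest. The trend was carried by knockout-labelled libraries 1 and 3, whose own deviations had a rho with length of -0.34 and -0.48, while knockout-labelled library 2 was at 0.09 and the wild-type libraries between 0.03 and 0.26. The longest transcript had a median of 5087 bases in the 19 genes that fell, 2675 in the 12 that rose and 3311 over the genes at or above the median level. With the trend removed in each library, a step chosen after seeing the data, 14 genes passed, 9 higher and 5 lower, and 13 of these were among the 31. The 13 were Aqp8, Txnip, Rogdi, Slc17a4, Ly6d, Csrp3, Fosb, Rap1gap, Got1, Gcnt4, Wsb1, Gm4963 and F830016B08Rik. Dst, with a longest transcript of 23279 bases, went from -0.92 to -0.52 (adjusted p = 0.233), F5 from -0.67 to -0.48 (adjusted p = 0.133) and Vps13c from -0.71 to -0.44 (adjusted p = 0.104). Slc7a2 went from -1.12 to -0.91 (adjusted p = 0.0619). With knockout-labelled library 2 as the only member of its group, Got1 stood at -2.59, Slc7a2 at -1.08, Aqp8 at 1.93 and Dst at -0.90, where the lone library was assumed to vary like the others. Where the length trend came from was not tested.

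The receptor's own cascade held 1 gene that passed. Of 37 tested genes of the glucagon receptor cascade (G protein subunits, adenylate cyclases, protein kinase A subunits, phosphodiesterases, CREB and its partners), Pde3b fell and 36 did not pass, where 0.155% of all tested genes passed. With the length trend removed Pde3b stood at -0.44 and did not pass either (adjusted p = 0.101), and it passed in 4 of the 19 alternatives. The list's median was -0.10 beside -0.01 over all tested genes, and -0.02 with the length trend removed. Of 26 genes known to be induced by cyclic AMP in liver, Got1 fell and 25 did not pass, with a median of -0.26 and -0.21 with the length trend removed. The gluconeogenic enzyme gene Pck1 had 211053, 133844 and 221075 in wild type and 260893, 155324 and 122107 in knockout-labelled livers, with overlapping groups (log2 fold change -0.11, SE 0.30, adjusted p = 0.904). G6pc, the glucose-6-phosphatase gene, stood at -0.39 (SE 0.33, adjusted p = 0.639), also with overlap. Of 23 genes of gluconeogenesis 1 fell, again Got1, and the median was 0.09; Pcx, pyruvate carboxylase, had the next smallest p (log2 fold change 0.41, adjusted p = 0.161). Of 28 genes of glycolysis and glycogen, Txnip rose, Pfkfb2 fell and the median was 0.17.

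Amino acid genes had medians below that of all genes. The breakdown and transporter lists each held 1 gene that passed, where 0.155% of all tested genes passed. Of 68 genes of amino acid breakdown, Got1 fell and 67 did not pass (median -0.07, with 42 below 0). Oat, ornithine aminotransferase, had 94953, 74569 and 51026 in wild type and 31412, 26745 and 32087 in knockout-labelled livers. Its groups did not overlap and it missed the threshold (log2 fold change -1.25, SE 0.23, adjusted p = 0.0663). Gls2, the liver glutaminase, had 25904, 23214 and 19812 in wild type and 10881, 6269 and 14916 in knockout-labelled livers, without overlap and without passing (log2 fold change -1.18, SE 0.30, adjusted p = 0.139). Of 38 amino acid transporters, Slc7a2 fell and 37 did not pass, with a median of -0.18, or -0.10 with the length trend removed. Slc38a5, a glutamine transporter, was at or near the lowest value in all 6 libraries, at 2.18, 1.504 and 1.00 in wild type and 1.00, 8.60 and 4.23 in knockout-labelled livers (adjusted p = 0.490). Of 12 genes of the urea cycle 0 passed, with a median of -0.20. Slc25a15, the mitochondrial ornithine carrier, was the nearest (log2 fold change -0.79, SE 0.15, adjusted p = 0.0659). Cps1, the first enzyme of the cycle, overlapped between groups (log2 fold change 0.09, SE 0.20, adjusted p = 0.876). Glul, glutamine synthetase, stood at 0.11 (SE 0.12, adjusted p = 0.712).

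**Figure D5:**
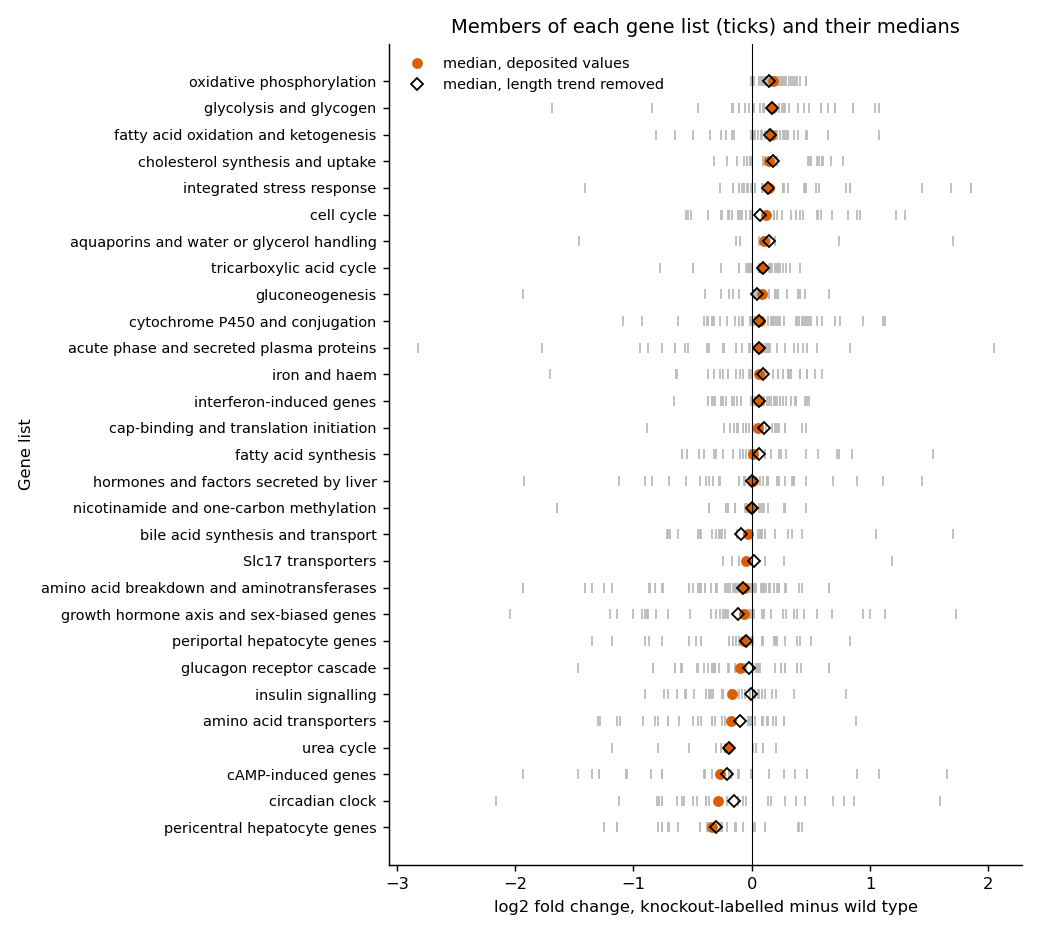
Log2 fold change of knockout-labelled minus wild-type livers (horizontal axis) for the tested members of 29 gene lists, one tick per gene, with the list's median as deposited (filled circle) and with the length trend removed (open diamond). The medians lie between -0.34 for pericentral genes and 0.18 for oxidative phosphorylation; the circle and the diamond part most for insulin signalling, at -0.17 and 0.00.

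Lipid, bile acid and mitochondrial lists were nearly without calls, where 0.155% of all tested genes passed. At that share, lists of this size would mostly hold no gene that passed. Of 52 subunits of oxidative phosphorylation 0 passed, while 51 had a log2 fold change above 0 (median 0.18, highest 0.46), beside 48.6% of all tested genes. Their summed value was 471178 to 482041 in wild type and 463881 to 618951 in knockout-labelled livers, so the groups overlapped. These subunits had short transcripts, with a median of 1240 bases. With the length trend removed their median was 0.15. Cox6b1, a cytochrome oxidase subunit, had the smallest p (log2 fold change 0.37, adjusted p = 0.221), and knockout-labelled library 2 alone put it at 0.10. Of 26 genes of fatty acid synthesis, 27 of cholesterol synthesis and uptake, 36 of fatty acid oxidation and ketogenesis and 31 of the tricarboxylic acid cycle 0 passed, with medians of 0.01, 0.15, 0.16 and 0.09. Fads1, a fatty acid desaturase, was the nearest of these (log2 fold change -0.55, adjusted p = 0.0828). Of 29 genes of bile acid synthesis and transport Aqp8 rose and 28 did not pass. Among 10 tested aquaporins and glycerol genes Aqp8 rose, while Aqp9, the glycerol channel of hepatocytes, stood at -0.10 (adjusted p = 0.804) and Aqp1 at 0.09 (adjusted p = 0.725). Among 7 genes of the Slc17 family Slc17a4 rose and the other 6 did not pass, with Slc17a1 at 0.27 (adjusted p = 0.321).

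Stress, hormone and clock lists also had 0 members past the threshold. Of 37 genes of the integrated stress response 0 passed (median 0.14), and Eif4ebp1, an inhibitor of cap-dependent translation, had the smallest p (log2 fold change 0.45, adjusted p = 0.0978). Fgf21, a liver hormone of fasting, had 353, 584 and 242 in wild type and 461, 1356 and 207 in knockout-labelled livers, with overlap (log2 fold change 0.46, SE 0.66, adjusted p = 0.806). Of 38 hormones and factors secreted by liver 0 passed (median 0.01), with Igf1 at -0.90 (adjusted p = 0.0904). Of 26 clock genes 0 passed, with a median of -0.29, or -0.15 with the length trend removed, and Bhlhe40, a repressor of the clock, at 0.69 (adjusted p = 0.0789). Of 36 insulin signalling genes 0 passed; their median of -0.17 became 0.00 with the length trend removed, and their median transcript was 6294 bases. Of 28 pericentral genes 0 passed (median -0.34, with 21 below 0, and -0.30 with the trend removed), and of 28 periportal genes 0 passed (median -0.07). These counts of 0 by limma stand beside 0.155% of all tested genes past the same threshold (31 of 20029), and 2758 genes had an unadjusted p under 0.05.

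Of the 11 lists of cell type markers 0 held a gene that passed, where 0.155% of all tested genes passed. At that share, a count of 0 in lists this short says little about cell composition. The summed value of 15 Kupffer cell and macrophage markers was 31392 to 41421 in wild type and 32879 to 48522 in knockout-labelled livers, with a median log2 fold change of 0.19. Stellate cell and fibroblast markers (16 tested) had a median of 0.15, and sinusoidal and vascular endothelium (18 tested) one of 0.18. Cholangiocyte markers (9 tested) had a median of -0.40, with summed values of 2688 to 3746 in wild type and 3093 to 3552 in knockout-labelled livers. The part of cell composition in the changes above was not tested further.

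Promoters of the genes that passed were examined for motifs of the cyclic AMP pathway, as a description. RefSeq windows of 300 bases (250 before and 50 from the start on, build GRCm38.p6) were found for 22 of the 31 genes, and the windows of Eif4e3.1, F830016B08Rik, Gm4963, Ly6d, Pde3b, Ppm1l, Slc17a4, Slc7a2 and Vps13c were not among them. The full cyclic AMP response element TGACGTCA stood in a window of 4 of the 22 (18.2%), Epb4.1, Pdpr, Pogk and Wsb1, against 3.13% of 11710 tested genes with a window and 1.79% of all 32851 windows. All 4 genes fell, as did 19 of the 31 genes that passed, a count that includes genes without a window. With the length trend removed, Wsb1 still passed by limma (adjusted p = 0.0358). Epb4.1 (adjusted p = 0.151), Pdpr (adjusted p = 0.0615) and Pogk (adjusted p = 0.0650) then did not. The part TGACG of the response element was found in 11 of 22 (50.0%) against 32.2% of tested genes. The C/EBP-ATF element TGATGNAA was found in 2 (9.09%), Got1 and 4933437F05Rik, against 3.01%, and the forkhead motif TGTTTAC in 2 (9.09%), Aldoc and Txnip, against 3.33%. The E-box CACGTG, searched after the values were seen, stood in 7 of 22 (31.8%) against 10.9%. Both strands were searched, TGACG lies within TGACGTCA, and a match is not a binding site. The windows printed here were chosen because they hold the response element in a gene that fell, or belong to Got1 and Aqp8, the enzyme and channel with large changes. Capitals mark TGACGTCA, TGATGNAA or CACGTG on either strand.
Epb4.1 (GRCm38.p6 chr4:132075264-132075563, minus strand, the first of its 3 windows): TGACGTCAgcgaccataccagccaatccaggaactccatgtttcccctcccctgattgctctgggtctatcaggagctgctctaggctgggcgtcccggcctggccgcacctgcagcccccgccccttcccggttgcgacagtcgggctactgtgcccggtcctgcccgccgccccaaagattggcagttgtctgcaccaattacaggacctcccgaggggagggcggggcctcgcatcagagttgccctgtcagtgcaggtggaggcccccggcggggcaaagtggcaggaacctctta
Pdpr (GRCm38.p6 chr8:111094495-111094794, plus strand): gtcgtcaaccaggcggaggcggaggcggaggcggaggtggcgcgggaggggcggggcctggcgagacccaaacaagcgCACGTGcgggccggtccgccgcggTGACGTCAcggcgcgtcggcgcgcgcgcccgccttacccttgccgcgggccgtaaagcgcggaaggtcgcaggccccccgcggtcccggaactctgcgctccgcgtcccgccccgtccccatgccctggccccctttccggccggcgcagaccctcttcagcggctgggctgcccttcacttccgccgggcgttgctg
Pogk (GRCm38.p6 chr1:166409779-166410078, minus strand): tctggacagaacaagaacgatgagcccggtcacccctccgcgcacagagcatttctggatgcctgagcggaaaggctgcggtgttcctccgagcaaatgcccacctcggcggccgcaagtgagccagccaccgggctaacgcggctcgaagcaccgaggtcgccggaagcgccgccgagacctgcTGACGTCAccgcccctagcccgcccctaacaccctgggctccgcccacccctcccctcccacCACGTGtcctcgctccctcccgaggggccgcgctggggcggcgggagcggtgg
Wsb1 (GRCm38.p6 chr11:79254646-79254945, minus strand, the first of its 2 windows): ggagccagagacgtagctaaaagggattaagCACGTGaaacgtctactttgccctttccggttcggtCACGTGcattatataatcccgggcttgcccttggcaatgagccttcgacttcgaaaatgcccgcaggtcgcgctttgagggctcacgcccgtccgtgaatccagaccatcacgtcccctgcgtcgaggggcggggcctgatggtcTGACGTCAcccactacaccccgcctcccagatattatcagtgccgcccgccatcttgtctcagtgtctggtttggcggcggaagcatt
Got1 (GRCm38.p6 chr19:43524556-43524855, minus strand): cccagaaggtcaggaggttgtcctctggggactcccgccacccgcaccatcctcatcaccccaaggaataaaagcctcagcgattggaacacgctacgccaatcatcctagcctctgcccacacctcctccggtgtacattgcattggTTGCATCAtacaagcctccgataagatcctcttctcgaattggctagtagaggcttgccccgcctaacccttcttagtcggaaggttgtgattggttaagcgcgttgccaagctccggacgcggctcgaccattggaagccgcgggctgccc
Aqp8 (GRCm38.p6 chr7:123462044-123462343, plus strand): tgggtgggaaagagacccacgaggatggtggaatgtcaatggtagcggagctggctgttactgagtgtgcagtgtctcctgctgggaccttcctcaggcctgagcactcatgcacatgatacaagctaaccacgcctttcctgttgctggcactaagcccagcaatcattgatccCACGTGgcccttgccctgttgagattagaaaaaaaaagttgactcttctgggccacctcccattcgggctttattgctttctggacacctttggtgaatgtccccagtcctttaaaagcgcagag
In Pdpr, Pogk and Wsb1 an E-box stands in the same window as the response element. Got1 holds the C/EBP-ATF element alone, in its reverse complement TTGCATCA, and Aqp8 an E-box alone.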

How the data were processed

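RNA sequencing of 9 mouse livers was used, in 3 groups of 3 read from the sample titles. The deposited table holds one signal per Ensembl gene and library (37583 genes, mm9 coordinates), called the normalized value here. Per the submitters' processing notes, mm9, TopHat2 2.0, SAMtools and FastQC were used; how reads were counted and scaled was not given in the sources used here. A floor was seen at 1, and 15160 genes had it in all 9 libraries. Taking the commonest value above 1 as that of 1 read, 41.3% to 45.8% of the values below 10 reads came out whole within 0.01 read. Whole reads were therefore not recovered, and no model of counts was used. Estimated reads were 10.99 to 30.1 M per library.

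Values were taken as log2(value + 1) for genes above 1 in at least 3 of 9 libraries (20029 kept, 17554 not) and fitted with limma 3.58.1 in R 4.3.3, with group means over all 9 libraries, eBayes with trend and robust estimation, two-sided, Benjamini-Hochberg adjustment over all tested genes and a threshold of 0.05. Fold changes are on that log2 scale and understate changes of low genes; folds without log2 are ratios of group means. Transcript lengths came from the longest transcript in GENCODE M21 for 18920 tested genes, and promoter sequences from RefSeq (GRCm38.p6), matched by Entrez ID.

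Genes named were Gcgr, every gene past the threshold, the tested member with the smallest p of each of 29 function lists, and Gls2, Cps1, Slc7a2, Got1, Slc38a5, Pck1, G6pc, Fgf21 and Glul whatever their p; values in every library were given for the 15 largest changes among genes at or above the median level (293). Other genes named (Aqp1, Aqp9, Slc17a1, Eif4e3 and those of the closing observations) were picked with their values known. The 40 lists (29 of function, 11 of cell type markers) held 970 genes, 967 matched and 935 tested. Members, lists and rules were chosen with earlier results of these data known. Alternatives covered the pseudocount, the filter, scaling, variance estimation, libraries left out and a replicate block.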

Additional observations from a re-analysis of the deposited data

Results flagged for a closer look

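In 4 genes the effect differed between the labelled groups by the direct limma contrast of antibody-labelled with knockout-labelled libraries, adjusted over 20029 genes, of which 0.280% passed. Gcgr stood at -3.37 on the log2 scale in that contrast (adjusted p = 8.37e-07), with all 3 antibody-labelled libraries under all 3 knockout-labelled ones. F830016B08Rik stood at 0.86 (adjusted p = 0.0417), Ppm1l at 0.70 (adjusted p = 0.0417) and Vps13c at 0.69 (adjusted p = 0.0356), each with all 3 knockout-labelled libraries under all 3 antibody-labelled ones. These 3 genes were named for passing against wild type in the same knockout-labelled libraries, which favours a difference in this contrast. With the transcript length trend removed these 3 no longer passed, at 0.84 (adjusted p = 0.0634), 0.47 (adjusted p = 0.136) and 0.43 (adjusted p = 0.105), and the longest transcripts of Ppm1l and Vps13c were 9417 and 11527 bases. Against wild type, Ppm1l then went from -0.79 to -0.56 (adjusted p = 0.0982) and Vps13c from -0.71 to -0.44 (adjusted p = 0.104). Sult3a1, a sulfotransferase named as a list's smallest p, differed too (adjusted p = 0.0356), with 9.49, 11.2 and 10.6 in knockout-labelled libraries and the lowest value of 1 in the 3 antibody-labelled ones; with the length trend removed its adjusted p was 0.0571.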

How the results depend on the processing

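Gcgr in knockout-labelled against wild-type livers stayed above 0 and short of the threshold in every alternative run, between 0.14 and 0.38 with 1 library left out. Since the 2 groups did not overlap in Gcgr, leaving out 1 library or changing the pseudocount could not turn its sign. The count of genes passing in that comparison, 31 as reported, was 3 with no filter on low values, 15 in a fit of the 6 PBS libraries, and 0 with no trend and no robust estimation in limma, where 2402 genes had an unadjusted p under 0.05. Of alternatives chosen after seeing the data, removing the transcript length trend gave 14, removing length and GC trends 12, and keeping only knockout-labelled library 2 in its group 7. Leaving out 1 library at a time gave 4 to 145. The count in antibody-labelled against knockout-labelled, 56 as reported, was 23 with a pseudocount of 10, 3 with no filter, 29 with median of ratios scaling, 19 with weights per sample, and 1 with no trend and no robust estimation (2322 at an unadjusted p under 0.05). It was 9 with the length trend removed, 9 with length and GC removed, 8 with only knockout-labelled library 2, and 1 to 82 with 1 library left out. The causes of these shifts were not tested. Fits that leave libraries out also rest on fewer libraries. With the replicate number as a block, 38 genes passed, of which 22 were among the 31; the numbers did not pair the libraries, with correlations of 0.05, 0.01 and -0.01 between same-numbered libraries. Genes that had not passed changed sign in a few settings: Cps1 stood at -0.0100 under quantile normalization and at -0.11 with only knockout-labelled library 2, and with 1 library left out it ran from -0.054 to 0.22. With 1 library left out Pck1 ran from -0.42 to 0.13 and Fgf21 from -0.25 to 1.10. Of 760 list medians compared over 19 alternatives, 738 moved by less than the spread between replicates, the larger of the wild-type and knockout-labelled SDs. The medians could not move without trend and robust estimation, in the 6 PBS libraries, with the replicate block, or without 1 antibody-labelled library. Fits with the length trend removed were not among the 760 comparisons. Depth limits genes with few reads, such as Fosb, Grk4 and 4933437F05Rik, most in knockout-labelled library 1.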

Other observations

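Other gene groups of these livers held no gene past the threshold, by limma, in knockout-labelled against wild type, where 31 of 20029 tested genes passed (0.155%) and 2758 had an unadjusted p under 0.05. Of 41 acute phase and secreted plasma protein genes 0 passed (median log2 fold change 0.06), with a wide range. Orm3, an orosomucoid, had 95.4, 111 and 198 in wild type and 489, 374 and 817 in knockout-labelled livers, without overlap (log2 fold change 2.04, SE 0.35, adjusted p = 0.0624). The metallothionein gene Mt2 had 2803, 3705 and 5006 in wild type and 362, 461 and 880.0 in knockout-labelled livers, also apart (log2 fold change -2.82, adjusted p = 0.0663), and Mt1 stood at -1.77 (adjusted p = 0.0663). Of 60 genes of cytochrome P450 and conjugation 0 passed (median 0.07), with Ugt2b1, a glucuronosyltransferase, at -1.09 (adjusted p = 0.0624). Of 38 genes of the growth hormone axis and sex-biased expression 0 passed (median -0.07), with Sult3a1 at 1.73 (adjusted p = 0.0871) from values of 1.504 to 4.36 in wild type. Of 39 cell cycle genes, 41 interferon-induced genes, 33 of iron and haem, 23 of cap-binding and translation initiation and 19 of nicotinamide and one-carbon methylation 0 passed, with medians of 0.12, 0.06, 0.06, 0.06 and 0.00. The members with the smallest p were Gadd45b at 1.30 (adjusted p = 0.126), Psmb8 at 0.47 (adjusted p = 0.221), Slc39a14 at -0.64 (adjusted p = 0.0873), Eif4ebp1 at 0.45 (adjusted p = 0.0978) and Nampt at 0.28 (adjusted p = 0.328).

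Beside Fosb, other immediate-early genes were looked up after its value was seen. Fos had 226, 444 and 474 in wild type and 729.6, 1879.6 and 1072 in knockout-labelled livers, without overlap and without passing (log2 fold change 1.65, adjusted p = 0.225). Jun stood at 1.00 (adjusted p = 0.104) and Egr1 at 1.36 (adjusted p = 0.244), also without overlap, as in 16.4% of tested genes. Junb stood at 0.89 with overlapping groups (adjusted p = 0.538). Others stood below 0, also with overlap and without passing: Nr4a1 at -1.06 (adjusted p = 0.445), Sik1 at -1.05 (adjusted p = 0.442), Nr4a2 at -0.85 (adjusted p = 0.483), Per1 at -0.76 (adjusted p = 0.687) and Nr4a3 at -0.27 (adjusted p = 0.859).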
